A study of Caenorhabditis elegans with 8 samples.

Results

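Worms taken 12 h into recovery from the dauer stage were compared with a growing population of all stages. Of the 8 arrays of the series, the 4 whose labels name dauer exit at 12 h against mix-stage were used for this comparison, and the 4 dauer arrays served as the reference for where recovery started. All worms were Caenorhabditis elegans of the wild-type strain N2 (Bristol). Dauers were purified from liquid cultures, and for dauer exit such dauers were placed at low density on plates with Escherichia coli OP50 as food for 12 h. By the study's account these worms had resumed pharyngeal pumping but had not yet reached the moult to L4. Mix-stage worms came from plates started with young adults, so that this population held embryos, larvae and egg-laying adults. RNA of its replicate cultures was combined into 1 pool, and this pool was the second sample on every array. On 2 of the 4 dauer exit arrays (replicates 1 and 4) the dauer exit RNA carried the dye Cy5, and on the other 2 it carried Cy3.

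The dauer is a larva that has stopped feeding and developing, has a thick cuticle and a closed mouth, and lives on stored fat. Food makes it leave this state, feed again, shed the dauer cuticle at the next moult and go on to the L4 stage and adulthood. Germline maturation, oocytes, yolk and sperm belong to the stages after this point.

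Each value is a log2 ratio of dauer exit RNA over mix-stage RNA, averaged over the probes of a gene, so that 1 is a doubling and -1 a halving. Equal amounts of total RNA were labelled, so that a ratio is not an amount per worm. A gene was called higher or lower when its p, from a linear model over all genes (limma) and adjusted by the method of Benjamini and Hochberg, was at most 0.05. A gene was counted as within a factor of 2 of mix-stage when the whole 95% interval of its mean ratio lay between -1 and 1. No signal intensities were used here, so that a gene near the background of the arrays cannot be told from a gene at the mix-stage level. In whole worms, fewer cells of a type and less RNA per cell cannot be told apart either. The mix-stage pool is 1 sample, so its own spread is not in the tests. The labels call the 4 samples biological replicates and the study calls them parallel cultures, and p-values refer to the spread between these.

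Values were obtained for 15078 genes. Pairs of dauer exit arrays correlated across genes at 0.46 to 0.75. Replicate 1 stood apart on the upper side. It had 851 genes above a log2 ratio of 1, while the other 3 arrays had 178 to 251. On the lower side the arrays were alike, with 1723 to 2141 genes below -1.

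At 12 h the larvae differed from mix-stage worms mostly by what they lacked. Of the 15078 genes 1367 were called lower (9.07%) and 69 higher (0.458%), while 10383 (68.9%) lay within a factor of 2. The remaining 3290 genes were neither called nor within that band. The median over all genes was -0.08. Deficits were also larger than surpluses, with 419 genes lower and 1 gene higher by at least 4-fold. Of the lower calls 639 held whichever 1 dauer exit array was left out, and of the higher calls 10. With 3 arrays in place of 4 the fit called 678 to 1013 genes lower and 17 to 46 higher, the fewest without replicate 2 (678 and 17).

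Marker genes of tissues and stages were used to check the label. All 6 vitellogenin genes, which mark the adult intestine, were called lower (median -4.34), as were 9 of 10 oocyte and eggshell markers (median -2.90) and 8 of 10 body-wall muscle markers (median -1.67). Of 10 germline markers 1 was called lower and 3 lay within a factor of 2 (median -0.27, array medians -0.83 to 0.41). Of 10 embryo markers 2 were called lower and 7 lay within a factor of 2 (median -0.05). Of 8 measured sperm markers 4 were called lower (median -0.70), and of 7 measured male markers 1 was (median -0.28). None of the 8 measured pharynx markers was called, and 6 of them lay within a factor of 2 of mix-stage. Of 10 dauer larva markers 4 were called lower and 0 higher than mix-stage, and 4 were lower than in dauers. Their median in dauers was 0.19, so that as a set these markers hardly stood above mix-stage even there. A label of worms that had left the dauer state but were not adults was not contradicted by these markers.

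**Figure D1:**
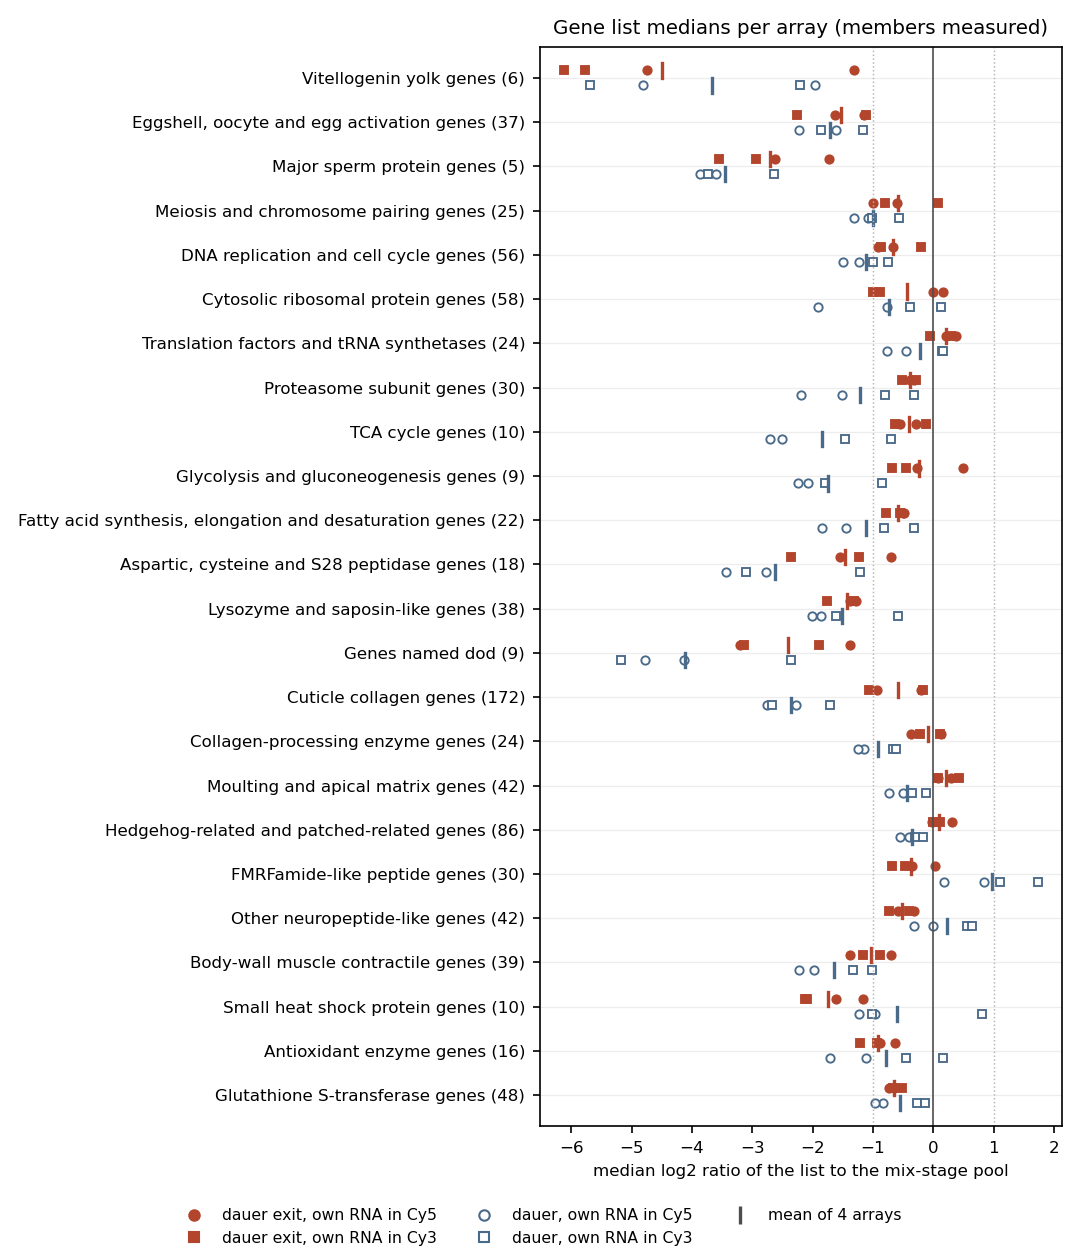
Median log2 ratio to the mix-stage pool of 24 gene lists on each array, with the number of measured members in brackets. Filled red marks are the 4 dauer exit arrays, open blue marks the 4 dauer arrays, circles and squares give the dye of the sample's own RNA, short bars are the mean of the 4 array medians and dotted lines mark 2-fold. Yolk genes lie far below mix-stage in dauer exit, while the medians of the moulting and apical matrix genes are between 0.07 and 0.42.

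Of all lists the 6 yolk genes had the lowest median (-4.34). The vitellogenins are yolk proteins made by the intestine of adult hermaphrodites. For vit-1 the ratios on the 4 dauer exit arrays were -3.65, -6.76, -5.90 and -5.58, and the mean of -5.47 (SE 0.48, adjusted p = 0.00016) is 44.4-fold less than in mix-stage. Its ratio in dauers was -5.07, and the stages overlapped. For vit-2 the ratios were -0.52, -6.81, -6.28 and -5.59 (mean -4.80, SE 1.01, adjusted p = 0.0163). Replicate 1 was thus close to mix-stage for vit-2, and the same array was the least negative for all 6 genes, with a list median of -1.31 against -4.75 to -6.13 on the others. The calls of vit-1, vit-3 and vit-6 held whichever 1 array was left out. Those of vit-2, vit-4 and vit-5 held without replicate 1 but not without replicate 2, 3 or 4. With 1 array left out, the mean of vit-2 was between -6.23 and -4.13, that of vit-4 between -4.94 and -3.29 and that of vit-5 between -4.99 and -3.36.

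Most genes of the oocyte and its shell were called lower. Of 37 measured members of the eggshell, oocyte and egg activation list 23 were called lower and 0 higher, and 19 of these calls held whichever 1 array was left out. The list median was -1.57. The gene rme-2, which encodes the yolk receptor of oocytes, had ratios of -4.14, -5.22, -3.52 and -4.74 (mean -4.40, SE 0.36, adjusted p = 0.000114). The gene puf-5, a regulator of translation in growing oocytes, had a mean of -4.60 (SE 0.35), and the eggshell proteoglycan genes cpg-2 and cpg-3 had -4.01 (SE 0.35) and -4.50 (SE 0.43). None of these 4 genes was called between dauer exit and dauer, where their ratios were -3.31 to -4.78. Not every oocyte gene was part of this deficit. The zinc finger gene oma-1, needed for oocyte maturation, had 1.5 on replicate 1 and -0.50, -0.58 and -0.09 on the others (mean 0.08, 95% interval -0.64 to 0.81).

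Sperm genes were split. Of 5 genes for major sperm proteins, the cytoskeletal proteins of nematode sperm, 4 were called lower, led by msp-78 with ratios of -4.37, -5.95, -5.10 and -4.67 (adjusted p = 0.000103) and msp-3 with a mean of -4.09 (SE 0.62). Probes for these near-identical copies cannot be assigned to 1 gene with certainty. Of 38 other sperm genes 13 were called lower and 23 lay within a factor of 2 of mix-stage (list median -0.23). The lower group included nspd-2 (-3.23, SE 0.29), nspd-1 (-2.82, SE 0.21), ssq-2 (-2.45, SE 0.28) and ssp-10 (-2.33, SE 0.27). The gene ssp-9 stayed near 0 (-0.02, 95% interval -0.34 to 0.30).

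Genes of the early germline are a separate list. Of 27 germ granule and germline identity genes 3 were called lower (11.1%) and 13 lay within a factor of 2 (48.1%, list median -0.17). Over all genes these shares were 9.07% and 68.9%. The Notch receptor gene glp-1, which keeps germline stem cells dividing, had ratios of -0.25, 0.26, 0.61 and -0.56 (mean 0.01, 95% interval -0.44 to 0.47). The 3 lower genes were nos-2 (-2.21, SE 0.25), pie-1 (-1.18, SE 0.17) and glh-2 (-1.02, SE 0.22), and the call of glh-2 was lost without replicate 1, 2 or 4 (means -1.19 to -0.84). Of 25 meiosis genes 9 were called lower and 7 lay within a factor of 2 (list median -0.59). The synaptonemal complex gene syp-2 was lower on all 4 arrays (-1.41, -1.97, -1.23 and -1.36, SE 0.23, adjusted p = 0.00322). The axis gene him-3 had -1.90, -2.44, 0.04 and -2.53, so that replicate 3 was at the mix-stage level, and its call was lost without replicate 1, 2 or 4 (means -2.29 to -1.43). In the whole meiosis list 4 genes were called lower without replicate 1, and 1 call held whichever array was left out. Of 53 embryonic fate genes 44 lay within a factor of 2 of mix-stage and 4 were called lower.

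**Figure D2:**
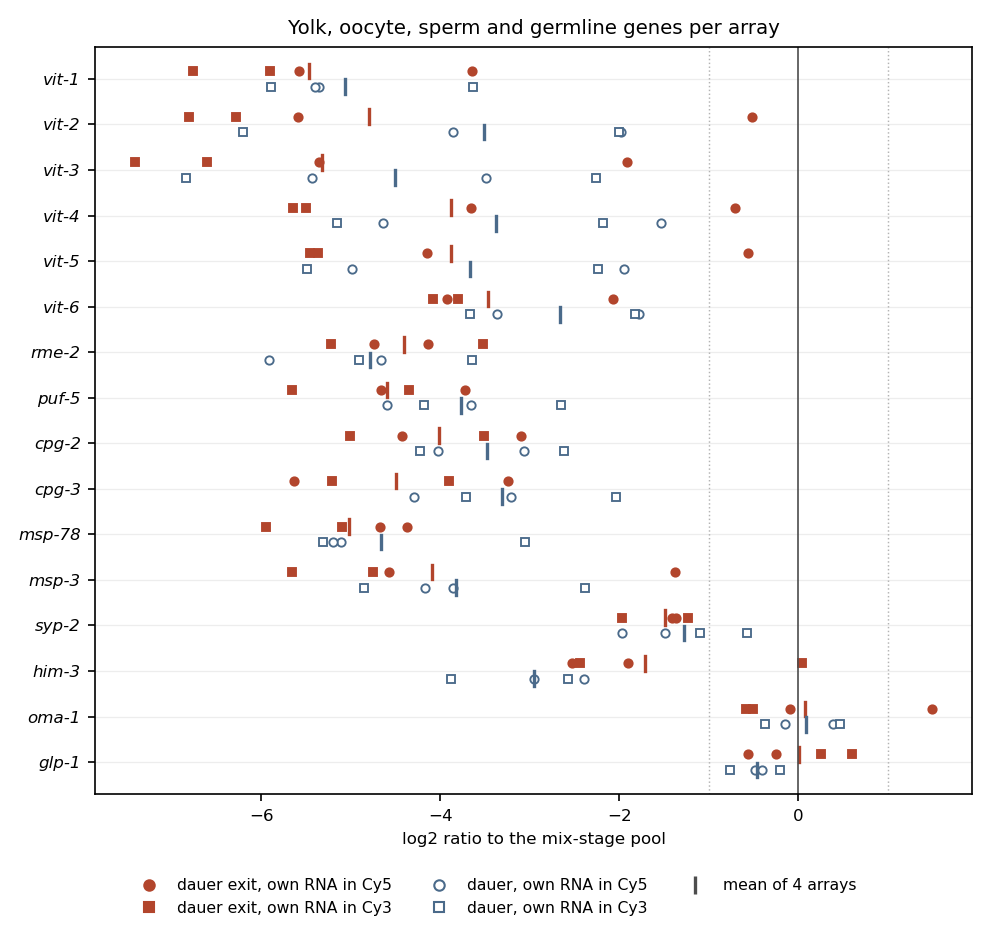
Log2 ratio to the mix-stage pool (horizontal axis) of 16 yolk, oocyte, sperm and germline genes on each array. Filled red marks are dauer exit, open blue marks dauer, circles and squares give the dye of the sample's own RNA, bars are means of 4 arrays and dotted lines mark 2-fold. The yolk genes spread widely, with replicate 1 the least negative array, while glp-1 lies within a factor of 2 of mix-stage on every dauer exit array.

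Some cell division genes were called lower, while the lists of protein synthesis held no lower call. Of 56 DNA replication and cell cycle genes 12 were called lower, 0 higher and 21 lay within a factor of 2 (median -0.66). The lower members were led by the B-type cyclin genes cyb-2.1 (-2.26, -3.33, -2.68 and -2.63, SE 0.21, adjusted p = 0.000103) and cyb-2.2 (mean -2.66, SE 0.25), followed by cyb-1 (-2.12, SE 0.39) and the dUTPase gene dut-1 (-1.98, SE 0.38). The cyclin-dependent kinase gene cdk-2 was at the mix-stage level (95% interval -0.34 to 0.35). Of 25 histone genes 8 were called lower, among them his-39 (-2.11, SE 0.32) and the linker histone gene his-24 (-1.92, SE 0.31). The call of cyb-1 was lost without replicate 2 and that of dut-1 without replicate 2 or 4, where their means were between -2.55 and -1.81. Paralogous histone and cyclin copies share sequence, so that their probes may not separate them.

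None of the 58 cytosolic ribosomal protein genes was called (limma), and 4 had an unadjusted p under 0.05. Their median was -0.43. It was -0.01 and 0.17 on the arrays with dauer exit RNA in Cy5 and -1.01 and -0.88 on those with it in Cy3. The dauer arrays were ordered the other way, with -1.92 and -0.77 for dauer RNA in Cy5 and 0.12 and -0.38 in Cy3. The part of the dye in this list was not tested. Genes that build or feed the ribosome are a separate group. None of 17 nucleolar ribosome biogenesis genes was called (limma; 0 at an unadjusted p under 0.05), and their median was 0.13. Of 24 translation factor and tRNA synthetase genes 2 were called higher and 0 lower (median 0.30). These were eif-3.B, a subunit gene of an initiation factor (1.42, 0.38, 0.93 and 0.62, SE 0.22, adjusted p = 0.0396), and clu-1 (mean 0.73, SE 0.18, adjusted p = 0.036). Neither call held without replicate 2, 3 or 4, and that of eif-3.B was also lost without replicate 1. The means with 1 array left out were 0.64 to 0.99 for eif-3.B and 0.66 to 0.85 for clu-1. None of 30 proteasome subunit genes was called (limma; 1 at an unadjusted p under 0.05), and their median was -0.39 in dauer exit and -1.27 in dauers. Within a factor of 2 of mix-stage lay 20 ribosomal protein, 10 ribosome biogenesis, 11 translation and 12 proteasome genes. These are smaller shares than the 68.9% over all genes, so that the lack of lower calls does not place these lists at the mix-stage level.

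In the lists of central energy metabolism 0 of 10 TCA cycle, 2 of 9 glycolysis and 3 of 29 respiratory chain genes were called lower than mix-stage. Over all genes 9.07% were. Fewer of their genes than of all genes lay within a factor of 2, namely 4 of 10 TCA cycle, 5 of 9 glycolysis and 10 of 29 respiratory chain genes. None of 10 TCA cycle genes was called against mix-stage (limma; 2 at an unadjusted p under 0.05), with a median of -0.37, against -1.78 in dauers. The mitochondrial malate dehydrogenase gene mdh-2 had ratios of -0.15, -0.29, 0.12 and 0.10 in dauer exit and of -3.05, -3.35, -1.57 and -2.21 in dauers. The stages did not overlap, and the difference of 2.49 (SE 0.38, adjusted p = 0.0078) held whichever 1 of the 8 arrays was left out. Over all genes 1.88% were called higher in dauer exit than in dauers and 2.13% lower. In the glycolysis and gluconeogenesis list 4 of 9 genes were higher than in dauers. The phosphoglycerate kinase gene pgk-1 had 0.74, -0.81, -0.46 and 0.72 in dauer exit and -2.36, -3.37, -1.96 and -2.37 in dauers (difference 2.56, SE 0.44, adjusted p = 0.0136). The fructose-bisphosphatase gene fbp-1, of the gluconeogenic direction, differed by 1.75 (SE 0.36, adjusted p = 0.0282), a call that was lost without each of 7 of the 8 arrays, with differences of 1.56 to 2.08. The 2 members called lower than mix-stage were the glyceraldehyde-3-phosphate dehydrogenase gene gpd-1 (-1.24, -2.83, -1.76 and -1.78, SE 0.27, adjusted p = 0.00231) and the glucose-6-phosphate isomerase gene gpi-1 (-0.56, -0.69, -0.78 and -0.77, SE 0.16, adjusted p = 0.0227). The call of gpi-1 was lost without each of the 4 arrays in turn (means -0.75 to -0.68). Of 29 respiratory chain and ATP synthase genes 3 were called lower than mix-stage (median -0.35).

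Fat metabolism was mixed. The carnitine palmitoyltransferase gene cpt-4, of the family that brings fatty acids into mitochondria, had 1.27, 1.08, 1.89 and 1.45 in dauer exit and -1.36, -3.22, -1.35 and -1.74 in dauers. It was higher than mix-stage (1.42, SE 0.29, adjusted p = 0.0153) and higher than in dauers by 3.34 (SE 0.42, adjusted p = 0.00399). The second call held whichever 1 array was left out and the first was lost without replicate 2, 3 or 4 (means 1.27 to 1.54). Of 31 fatty acid oxidation genes this was the 1 higher member, and 4 were called lower, led by hacd-1 (-3.12, SE 0.26), a hydroxyacyl-CoA dehydrogenase gene. Of 22 genes of fatty acid synthesis, elongation and desaturation 6 were called lower, and 3 without replicate 1. They included the desaturase genes fat-6 (-1.98, -3.69, -2.19 and -3.70, SE 0.49, adjusted p = 0.0057) and fat-2 (-2.37, SE 0.52). They also included elo-5 (-1.54, SE 0.38) and elo-6 (-1.93, SE 0.44), elongase genes of branched-chain fatty acids. Of these 4 the call of fat-6 held whichever 1 array was left out. Those of the other 3 were lost without replicate 2 or 4, that of fat-2 also without 3 and those of elo-5 and elo-6 also without 1. Their means were -2.67 to -2.06 for fat-2, -1.92 to -1.26 for elo-5 and -2.21 to -1.64 for elo-6. The fatty acid synthase gene fasn-1 lay at the mix-stage level (0.11, 0.37, -0.38 and -0.03) and was at -1.23 in dauers.

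Several families of intestinal genes were below mix-stage after 12 h on food, and others were not. Of 9 measured intestine markers 2 were called lower (median -1.23). The 18 genes for aspartic, cysteine and S28 peptidases, most of them digestive enzymes of the gut, had a median of -1.47 in dauer exit and -2.42 in dauers. Of these 8 were called lower than mix-stage and none lay within a factor of 2. The cathepsin B-like gene cpr-1 had -1.41, -4.80, -3.86 and -3.45 (SE 0.69, adjusted p = 0.0146), a call that held without replicate 1 and was lost without each of the others (means -4.04 to -2.90). The call of cpr-4 (-2.36, SE 0.38) held whichever 1 array was left out. Of 38 lysozyme and saposin-like genes 21 were called lower, 16 of them whichever 1 array was left out. The lysozyme gene lys-7 had -4.02, -6.44, -4.01 and -5.72 (SE 0.48, adjusted p = 0.000241), which is 33.1-fold less than in mix-stage. The saposin-like gene spp-18 had -4.83, -6.0, -4.48 and -4.76 in dauer exit and -2.86, -3.91, -1.06 and -2.94 in dauers. Its arrays did not overlap between the stages, and the difference missed the threshold (-2.32, SE 0.57, adjusted p = 0.0582).

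Other families of the gut and of immunity held mostly lower calls. Of the 9 genes named dod, for being downstream of daf-16, 6 were called lower, with dod-23 at -5.35 (SE 0.49), dod-24 at -4.18 (SE 0.57), dod-17 at -3.39 (SE 0.41) and dod-22 at -2.92 (SE 0.38). Of 243 C-type lectin genes 44 were called lower (18.1%, against 9.07% of all genes) and 4 higher. Within a factor of 2 lay 164 (67.5%, against 68.9% of all genes). The lowest was clec-174 with -4.53, -7.29, -5.69 and -5.57 (SE 0.54, adjusted p = 0.000205). The 4 higher lectins were clec-258 (1.78, SE 0.36), clec-225 (1.36, SE 0.35), clec-229 (1.08, SE 0.24) and clec-218 (0.94, SE 0.19). Each of these 4 calls was lost without replicate 2 and without at least 1 other array, with means of 1.42 to 2.34, 0.80 to 1.64, 0.85 to 1.36 and 0.83 to 1.04. In contrast, clec-225 was higher than in dauers by 3.52 (SE 0.50, adjusted p = 0.00605) whichever array was left out. The gene act-5, for the actin of intestinal microvilli, was at -0.92 (SE 0.35, adjusted p = 0.155) against -3.30 in dauers. Of 20 transporter genes for peptides, sugars and amino acids 2 were called lower (10%) and 16 lay within a factor of 2 of mix-stage (80%).

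The cuticle collagens formed a broad range rather than a block. Collagens make up most of the worm cuticle, and a different set of them is transcribed before each moult. Of the 172 genes in the list 53 were called lower, 1 higher and 57 lay within a factor of 2 (33.1%, against 68.9% of all genes). The list median was -0.57 in dauer exit and -2.40 in dauers. The 1 higher member, dpy-18, encodes a collagen-modifying enzyme and not a collagen, and its values are given with the enzymes. The lowest members were col-129 (-4.21, -6.51, -5.35 and -5.93, SE 0.45, adjusted p = 0.000121), col-80 (-5.43, SE 0.54), col-175 (-4.91, SE 0.43) and col-106 (-4.51, SE 0.52). Collagens of the adult cuticle were also low. The gene col-19, an adult-specific collagen, had -2.33, -3.55, -3.34 and -3.61 (SE 0.28, adjusted p = 0.000158), and bli-1, which builds the struts of the adult cuticle, had -1.82 (SE 0.25, adjusted p = 0.00186). Both differed little from their level in dauers, -2.66 and -1.80. Probes of collagen genes may cross-hybridise because the family shares repeats.

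Among the epidermal marker genes 5 other collagens were not called against mix-stage. The gene rol-6 had 0.13, 0.14, 0.70 and 0.97 in dauer exit and -4.67, -4.66, -2.84 and -3.96 in dauers. The difference of 4.52 (SE 0.42, adjusted p = 0.00167) is 22.9-fold. The gene dpy-7 had 0.48, 0.65, 0.03 and 0.85 against -2.56, -2.99, -2.25 and -2.50 (difference 3.08, SE 0.25, adjusted p = 0.00101). None of the arrays of the stages overlapped for either gene. For dpy-13 the difference was 3.76 (SE 0.63), for lon-3 it was 3.45 (SE 0.46) and for sqt-3 it was 2.62 (SE 0.54, adjusted p = 0.0293). All but that of sqt-3 held whichever 1 array was left out, and that of sqt-3 was lost without each of 6 arrays (2.27 to 3.14). The adjusted p of these 5 genes against mix-stage was 0.128 or more. Of all 8 measured epidermal markers 1 lay within a factor of 2, so that most of these 5 are not shown to be at the mix-stage level. In the whole list 38 genes were higher and 2 lower in dauer exit than in dauers, and 23 of the 38 held whichever 1 array was left out. The gene col-54, chosen here after its values were seen, had the highest mean ratio of the list (1.78) but ratios of 4.52, 0.00, 2.13 and 0.48, and it was not called against mix-stage (SE 0.73, adjusted p = 0.195).

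**Figure D3:**
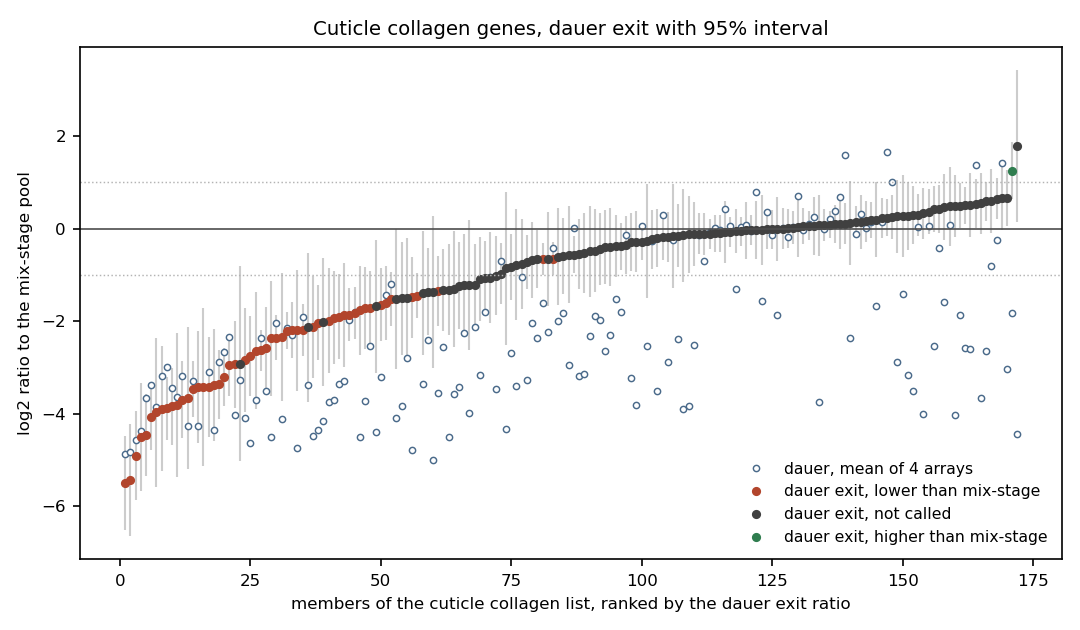
The 172 members of the cuticle collagen list ranked by their mean log2 ratio of dauer exit over mix-stage (vertical axis), with the 95% interval as a grey line and the mean ratio of the dauer arrays as an open blue circle. Red marks the 53 members called lower green the 1 called higher, which is dpy-18, and dark grey those not called. In the right-hand part of the plot many dauer values lie far below the dauer exit values.

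The list of collagen-processing genes had calls in both directions. The genes dpy-18 and phy-2, for alpha subunits of collagen prolyl 4-hydroxylase, were called higher than mix-stage. For dpy-18 the ratios were 1.49, 0.54, 0.99 and 1.99 in dauer exit and -2.55, -1.88, -1.09 and -1.77 in dauers (difference 3.08, SE 0.39, adjusted p = 0.00399). For phy-2 they were 1.34, 1.55, 1.64 and 0.42 and -3.05, -1.51, -2.0 and -1.89 (difference 3.35, SE 0.39, adjusted p = 0.00317). Both differences from dauers held whichever 1 array was left out. The means against mix-stage were 1.25 (SE 0.27, adjusted p = 0.0195) and 1.24 (SE 0.27, adjusted p = 0.0208). Those calls were lost without replicate 1, 3 or 4 for dpy-18 (means 1.01 to 1.49) and without replicate 1, 2 or 3 for phy-2 (means 1.10 to 1.51). Of the 24 collagen-processing genes 2 were higher and 2 lower than mix-stage, and 0 and 1 without replicate 1. The lower ones, sqv-1 (-1.03, SE 0.18) and sqv-3 (-0.79, SE 0.17), belong to the synthesis of proteoglycan sugar chains.

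The list of moulting and apical matrix genes had 42 measured members, of which 4 were called higher than mix-stage (2 without replicate 1), 0 lower and 24 lay within a factor of 2. Their median of 0.23 was above that of all genes (-0.08). The gene mlt-8, named for its moulting defect, had 2.88, 0.75, 0.92 and 1.18 in dauer exit and -3.15, -2.34, -2.40 and -2.80 in dauers. Replicate 1 was far above the others, and the call against mix-stage (1.43, SE 0.32, adjusted p = 0.0224) held without it, at 0.95, but not without replicate 4, at 1.66. Against dauers the difference of 4.10 (SE 0.46, adjusted p = 0.00292) held whichever 1 array was left out, as did that of mlt-10 (3.22, SE 0.39). Their surplus over mix-stage was smaller than their distance from dauers. The mean ratio of mlt-10 was 1.17 (SE 0.28), that of mlt-4 was 1.12 (SE 0.29) and that of osm-7 was 0.89 (SE 0.19), and none of these 3 calls held whichever array was left out. That of mlt-10 was lost without replicate 1, 2 or 3 (means 0.82 to 1.42) and that of mlt-4 without each of the 4 arrays in turn (means 0.82 to 1.33). That of osm-7 was lost without replicate 2 or 3 (means 0.64 to 1.01). In the list 10 genes were higher and 1 lower in dauer exit than in dauers, 9 of the 10 whichever 1 array was left out.

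Hedgehog-related and patched-related genes, most of them expressed in epidermis and linked to moulting in this worm, were compared in the same way. Of 86 members 18 were higher in dauer exit than in dauers and 2 lower, 10 of the 18 whichever 1 array was left out. Against mix-stage 1 was called higher, grl-22 (1.29, 0.85, 0.68 and 1.02, SE 0.22, adjusted p = 0.0222, lost without replicate 1, 2 or 4 at means of 0.85 to 1.06), and 6 lower, led by grd-13 (-2.38, SE 0.39). The epidermal marker wrt-2 had 0.67, -0.21, -0.31 and 1.96 in dauer exit and a mean of -2.55 in dauers (difference 3.08, SE 0.55, adjusted p = 0.016). That call was lost without dauer exit replicate 1 or dauer replicate 4 (differences of 2.60 to 3.41). Of 38 astacin metalloprotease genes, secreted enzymes that include those which loosen the old cuticle, 29 lay within a factor of 2. The 1 member called lower, nas-20, had -2.15, -2.59, -2.65 and -1.89 (SE 0.19, adjusted p = 0.000114), and this call held whichever array was left out. Of the 2 higher members, nas-29 had a mean of 0.63 (SE 0.14, adjusted p = 0.0217), which was lost without each of the 4 arrays in turn (means 0.58 to 0.70). The member nas-3 was higher on every array (1.91, 2.28, 1.99 and 1.37, SE 0.30, adjusted p = 0.00414), and its call held whichever 1 array was left out. None of 34 cuticlin and zona pellucida domain genes was called (limma; 1 at an unadjusted p under 0.05), and 27 lay within a factor of 2.

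**Figure D4:**
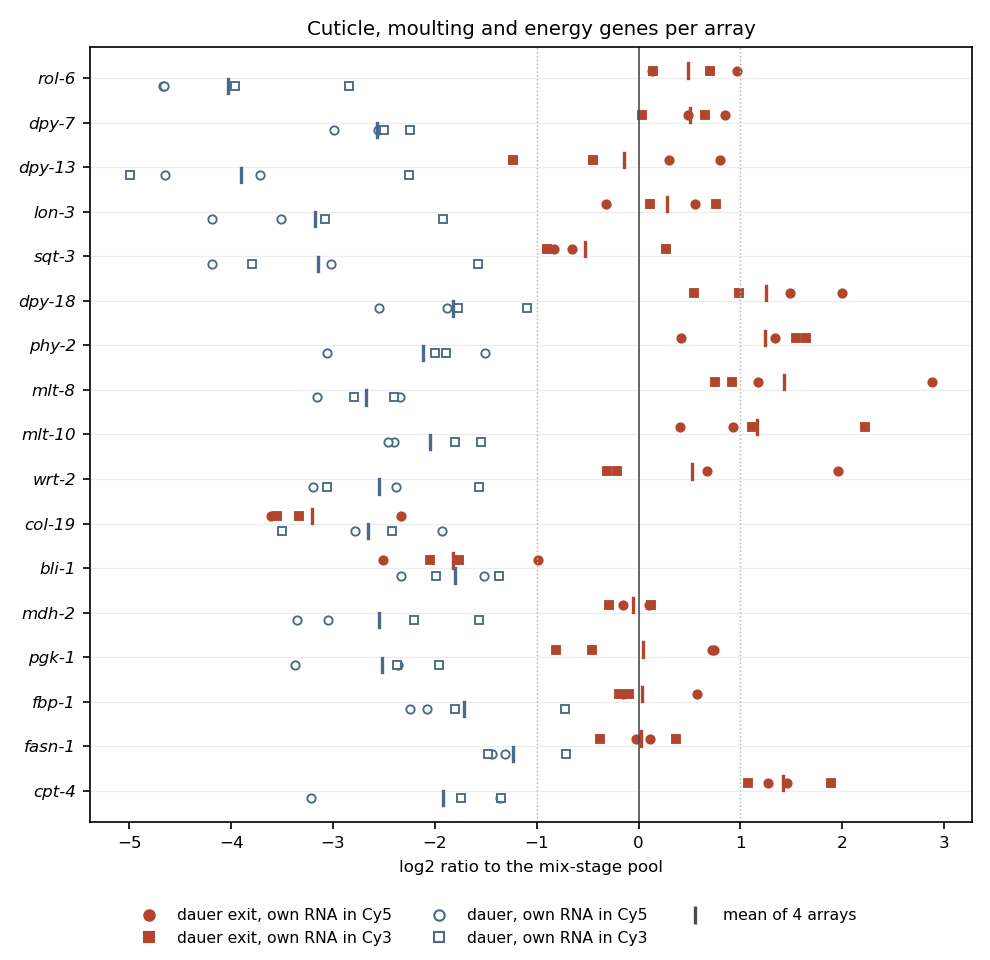
Log2 ratio to the mix-stage pool (horizontal axis) of 17 cuticle, moulting and energy genes on each array. Filled red marks are dauer exit, open blue marks dauer, circles and squares give the dye of the sample's own RNA, bars are means of 4 arrays and dotted lines mark 2-fold. For rol-6, dpy-7, dpy-18, phy-2, mlt-8, mdh-2 and cpt-4 all dauer exit arrays lie above all dauer arrays, while col-19 and bli-1 are low in both stages.

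The genes with the largest surplus over mix-stage came from several families. The highest was lips-6, a lipase-like gene, with 2.54, 3.89, 5.24 and 0.39 (mean 3.02, SE 0.63, adjusted p = 0.0161). Replicate 4 was near mix-stage for this gene, and the call was lost without replicate 2 or 3 (means 2.27 to 3.89). Among genes with a standard symbol 3 of the 12 largest increases kept their call whichever 1 array was left out. These were nas-3, klf-1, a Krüppel-like transcription factor gene (1.45, 1.92, 1.07 and 0.99, SE 0.22, adjusted p = 0.00414), and str-168, a chemoreceptor gene (0.69, 1.49, 1.92 and 0.87, SE 0.21, adjusted p = 0.00505). The sequence-named gene F26C11.1 was as stable (2.17, 1.34, 1.63 and 2.77, SE 0.32, adjusted p = 0.00434). The zinc finger gene dpy-20, needed for body shape, had 2.07, 1.59, 1.81 and 0.66 (SE 0.32, adjusted p = 0.0152), and the Argonaute gene ppw-2 had 2.36, 0.30, 1.61 and 0.85 (SE 0.32, adjusted p = 0.0371). Both calls were lost without replicate 1 or 3, that of dpy-20 also without 2 (means 1.35 to 1.82) and that of ppw-2 also without 4 (means 0.92 to 1.61).

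The flp genes included many that were lower than in dauers. FMRFamide-like peptides are short signalling peptides of neurons and other cells. Of 30 flp genes 13 were lower in dauer exit than in dauers and 0 higher, 5 of the 13 whichever 1 array was left out. The list median was -0.33 in dauer exit and 0.96 in dauers. The gene flp-19 had -1.76, -0.77, -1.25 and -0.76 in dauer exit and 2.24, 1.41, 2.29 and 3.24 in dauers (difference -3.43, SE 0.39, adjusted p = 0.00317). For flp-27 the difference was -3.24 (SE 0.41) and for flp-20 it was -3.19 (SE 0.48), and all 3 held whichever 1 array was left out. Several of these genes were below the growing population as well. Against mix-stage 5 were called lower and 0 higher, namely flp-26 (-1.95, -1.92, -2.77 and -1.95, SE 0.32, adjusted p = 0.00264), flp-27 (-2.05, SE 0.29), flp-20 (-1.69, SE 0.34), flp-19 (-1.13, SE 0.28) and flp-1 (-0.98, SE 0.26), the last chosen after its values were seen. The call of flp-19 was lost without each of the 4 arrays in turn, with means of -1.26 to -0.93, and that of flp-20 without replicate 2 or 3, with means of -1.80 to -1.52. The gene flp-8 lay at the mix-stage level instead (-0.14, 0.15, -0.27 and 0.23).

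Other peptide and neuronal lists held further lower members. Of 42 nlp genes, another class of neuropeptide genes, 9 passed the test below mix-stage and 0 above it (median -0.57), and 4 were lower and 1 higher than in dauers. The lowest was nlp-39 (-3.77, -5.31, -3.97 and -4.20, SE 0.41, adjusted p = 0.000215). Of 40 insulin-like peptide genes 33 lay within a factor of 2 (82.5%) and 5 were called lower (12.5%), among them ins-19 (-2.38, SE 0.20). Over all genes 68.9% lay within a factor of 2 and 9.07% were called lower. The level of ins-20 was 0.04 (95% interval -0.59 to 0.67) after 3.53 in dauers (difference -3.49, SE 0.39). Of 38 synaptic and neurosecretory genes 25 lay within a factor of 2 (65.8%) and 4 were called lower (10.5%). The lowest of them, tbh-1, encodes the enzyme that makes octopamine and had ratios of -3.46, -4.33, -3.76 and -3.77 (SE 0.17, adjusted p = 1.84e-05) and a mean of -3.38 in dauers. None of 29 neuropeptide receptor genes was called (limma; 2 at an unadjusted p under 0.05), and 25 lay within a factor of 2. Of 1311 chemoreceptor genes 1245 did, 2 were called higher and 3 lower, and many of these genes may be near background in whole worms.

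Muscle genes were listed by muscle type, and the difference between the types was not tested. Of 39 body-wall muscle contractile genes 18 were called lower, 14 of them whichever 1 array was left out, with a median of -1.09. The main myosin heavy chain gene unc-54 had -0.93, -2.07, -1.46 and -2.13 (SE 0.26, adjusted p = 0.00355), and the second one, myo-3, had -2.61, -3.17, -2.16 and -1.79 (SE 0.41, adjusted p = 0.00566). The myosin light chain gene mlc-1 was at -3.03 (SE 0.38) and the calponin-related gene unc-87 at -2.77 (SE 0.25). In the pharyngeal list 3 of 13 genes were lower than in dauers. The pharyngeal myosin gene myo-2 had -0.68, -0.27, -0.03 and -0.07 in dauer exit and 1.79, 2.00, 2.60 and 2.67 in dauers (difference -2.52, SE 0.27, adjusted p = 0.00275). The pharyngeal troponin C gene tnc-2 differed by -3.07 (SE 0.40, adjusted p = 0.00446), and both calls held whichever 1 array was left out. In the same list 5 genes were called lower than mix-stage (list median -0.64), and these were inx-11, tth-1 and the light chain genes mlc-1, mlc-2 and mlc-3, which body-wall muscle also uses.

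Of the 10 dauer larva markers 4 were lower in dauer exit than in dauers and 0 higher, namely hsp-12.6, mtl-1, tyr-3 and ins-20. These 4 were above mix-stage in dauers, while sod-3 was not. The other markers, among them sod-3, sip-1 and scl-2, were not called between the stages, and the median of all 10 in dauers was 0.19. The small heat shock protein gene hsp-12.6 had 5.05, 3.55, 4.03 and 6.56 in dauers and -1.20, 0.38, -0.67 and -0.53 in dauer exit (difference -5.30, SE 0.62, adjusted p = 0.00335, 39.4-fold). Its 6 probes had mean ratios of -0.88 to 0.00 in dauer exit. The metallothionein gene mtl-1 had -2.50, -3.48, -3.77 and -3.34 (mean -3.27, SE 0.39, adjusted p = 0.000779) and was above mix-stage in dauers, at 1.36. It thus passed from above to below the growing population (difference -4.64, SE 0.55, adjusted p = 0.00342). The tyrosinase gene tyr-3 had -0.44, -0.05, -0.19 and 0.21 in dauer exit and 3.41 on average in dauers. The superoxide dismutase gene sod-3, a target of the transcription factor DAF-16, had -0.84, -1.41, -1.78 and -1.13 (SE 0.24, adjusted p = 0.0093) against -0.07 in dauers. That difference missed the threshold (-1.22, SE 0.34, adjusted p = 0.0917), and the call against mix-stage was lost without replicate 2 (means -1.44 to -1.13).

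The stress and detoxification lists differed in how many of their members were below mix-stage. Of 10 small heat shock protein genes 7 were called lower and 0 higher, with a median of -2.12. They included sip-1 (-2.0, -4.70, -3.21 and -3.06, SE 0.40, adjusted p = 0.000933), hsp-17 (-2.89, SE 0.39), hsp-16.2 (-3.27, -4.29, -2.17 and -1.05, SE 0.58, adjusted p = 0.0187) and hsp-16.41 (-2.50, SE 0.56). The calls of hsp-16.2 and hsp-16.41 were lost without replicate 1, 2 or 3, with means of -3.24 to -2.16 and -2.97 to -1.91. Of 16 antioxidant enzyme genes 5 were called lower, including the catalase genes ctl-2 (-1.58, SE 0.32) and ctl-3 (-1.50, SE 0.40), and 0 of the 5 calls held whichever array was left out (ctl-2 at -1.69 to -1.44, ctl-3 at -1.58 to -1.44). The call of ctl-2 was lost without replicate 2 or 3 and that of ctl-3 without each of the 4 arrays in turn. Of 48 glutathione S-transferase genes 18 were called lower and 0 higher, 12 of them whichever 1 array was left out, led by gst-38 (-3.12, -4.99, -3.84 and -5.45, SE 0.40, adjusted p = 0.000194). Of 75 cytochrome P450 genes 13 were lower than mix-stage (8 without replicate 1) and 8 lower than in dauers, among which cyp-32B1 was both (-2.05, SE 0.40, and a difference of -2.91, SE 0.57). Its call against mix-stage was lost without replicate 2 or 4 (-2.27 to -1.82). Its call against dauers was lost without each of the 4 dauer exit arrays and without dauer replicate 1 or 4 (-3.52 to -2.67). Of 64 UDP-glucuronosyltransferase genes 8 were lower (12.5%, against 9.07% of all genes) and 2 higher. Of these 2 ugt-25 (0.82, 0.91, 1.78 and 1.04, SE 0.22, adjusted p = 0.0108) kept its call whichever 1 array was left out. Of 45 other chaperone genes 3 were lower and 1 higher than mix-stage (median -0.14). The higher one, the mitochondrial chaperone gene hsp-6, had a mean of 0.90 (SE 0.23, adjusted p = 0.0384), a call lost without each of the 4 arrays in turn (means 0.63 to 1.03), and was at 1.01 in dauers.

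**Figure D5:**
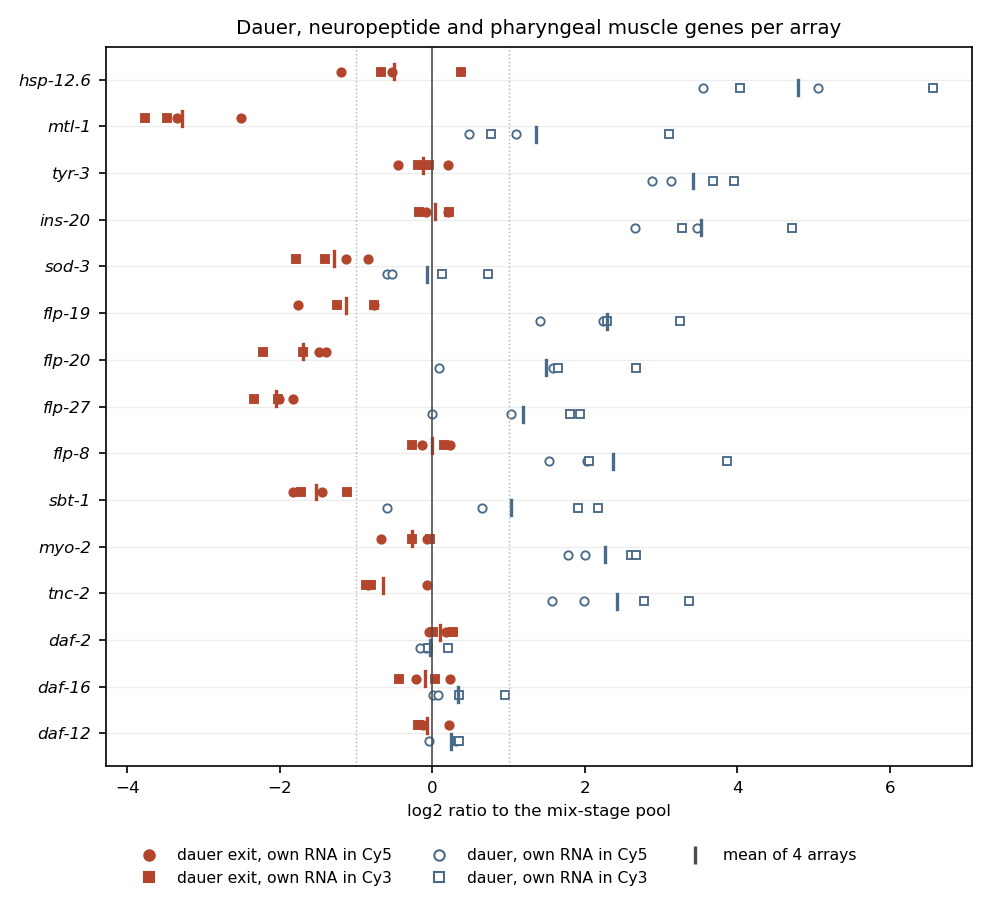
Log2 ratio to the mix-stage pool (horizontal axis) of 15 dauer, neuropeptide and pharyngeal muscle genes on each array. Filled red marks are dauer exit, open blue marks dauer, circles and squares give the dye of the sample's own RNA, bars are means of 4 arrays and dotted lines mark 2-fold. For hsp-12.6, mtl-1, tyr-3, ins-20, the 4 flp genes, myo-2 and tnc-2 all dauer exit arrays lie below all dauer arrays, while daf-2, daf-16 and daf-12 are near 0 in both.

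Of the regulators of the dauer decision, several central ones lay near the mix-stage level. The insulin receptor gene daf-2 had 0.18, 0.28, 0.01 and -0.05 (95% interval -0.20 to 0.41). The intervals of the transcription factor gene daf-16 (-0.53 to 0.33), the nuclear receptor gene daf-12 (-0.39 to 0.25) and daf-9 (-0.25 to 0.51), which makes its hormone, also lay within a factor of 2. The gene daf-7 of the TGF-beta branch had -0.27, -0.57, -1.03 and -0.45 (SE 0.17, adjusted p = 0.0711). Of 33 such regulators 23 lay within a factor of 2 (69.7%, against 68.9% of all genes) and 4 were called lower (12.1%, against 9.07%). They included daf-36, of dafachronic acid synthesis (-1.65, -1.56, -1.45 and -1.79, SE 0.17, adjusted p = 0.000355), daf-14 (-1.26, SE 0.33) and par-5 (-0.97, SE 0.25). The call of daf-36 held whichever 1 array was left out. That of daf-14 was lost without each of the 4 arrays in turn (means -1.47 to -1.13) and that of par-5 without replicate 2, 3 or 4 (means -1.15 to -0.79). The ratio of daf-36 in dauers was similar, -2.15.

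Regulators of development held few calls. None of 16 developmental timing genes was called (limma; 2 at an unadjusted p under 0.05). The 2 of smallest p were lin-28 (-0.52, -0.86, -0.19 and -0.82, SE 0.19, adjusted p = 0.0879) and lin-29 (0.40, 0.71, 0.33 and 0.25, SE 0.15, adjusted p = 0.142), an early-acting and a late-acting gene of the pathway that times larval fates. Of 61 genes of vulva, seam and gonad development 50 lay within a factor of 2 and 2 were called lower, the Wnt gene mom-2 (-0.95, SE 0.20) and the netrin receptor gene unc-40 (-0.71, SE 0.16). Both were lost without replicate 2 or 3, and that of mom-2 also without replicate 4 (means -0.99 to -0.91 and -0.82 to -0.61). Of 267 nuclear hormone receptor genes 77.5% lay within a factor of 2 and 8 were called lower, led by nhr-68 (-2.49, -2.90, -3.03 and -2.69, SE 0.24, adjusted p = 0.000156).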

How the data were processed

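The values deposited by the authors are log2 ratios of Cy5 over Cy3 per probe. Per the study's methods the arrays were scanned with a GenePix scanner, background-corrected with normexp and loess-normalized within each array in limma, with spike-in controls given extra weight. Their limma version: not given in the sources used here. Each ratio was turned to own RNA over mix-stage by the dyes in the labels. Deposited dauer exit arrays of one orientation correlated at 0.53 and 0.72, and those of opposite orientation at -0.62 to -0.37. Of 45220 features 44123 had values. Of these 27263 carried 1 gene symbol, and 16860 carried none and entered no gene test. Accessions linked 19293 probes to RefSeq genes (WBcel235), and 98 were renamed. Probes were averaged per symbol to 15078 genes, 10517 of them with 1 probe. Of 466 called genes with several probes 36 had probes on both sides of 0.

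The 8 arrays were fitted in one linear model with a term for each stage (lmFit and eBayes, limma 3.58.1, R 4.3.3), giving dauer exit against 0 and dauer exit minus dauer. Both share the mix-stage pool and the same dauer exit arrays. Precision is limited by the number of arrays, and the SE had a median of 0.22 against mix-stage and 0.31 between the stages. The procedure was tested on simulated data. The 53 gene lists are name patterns, and no set test was run. Named genes were the 12 largest called changes per direction with a standard symbol and the 3 largest with a sequence name, all 4 arrays on one side of 0, up to 4 called members per list and direction, the 2 of smallest p where no member was called, up to 2 members per list nearest 0, and the marker genes. The comparison, lists and rule were chosen with earlier results of these data known. Exceptions are said to be chosen after their values were seen. The dye term, array scaling, array centring, probe summary, threshold, prior, dye subset and each left-out array were varied. The result of 1 dauer regulator is not reported here.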

Additional observations from a re-analysis of the deposited data

Results flagged for a closer look

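Dauer exit replicate 1 had 851 genes above a log2 ratio of 1, and its gap to the other 3 arrays was large for a group of 4. This was 1 of 86 groups of 4 values examined, and chance gives about 1 such gap in 20 groups. No list median had such a gap in dauer exit, and neither did the genes with the largest called changes in either direction. Genes named from the lists can hold one, and nos-2 had -3.18 on replicate 2 against -1.97 to -1.84 on the others. Features without a gene symbol also differed from mix-stage. Of 16860 such features 45 were called higher and 769 lower, and they are unnamed here. Of the named genes 42 had a ratio that differed between dauer exit and dauer by the test of the difference (limma), 22 of them higher and 20 lower in dauer exit.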

How the results depend on the processing

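No called gene that is named changed direction under any alternative run, and 119 of the 208 kept their call whichever 1 dauer exit array was left out. Apart from marker genes, the naming rule asked for all dauer exit arrays on the same side of mix-stage. For genes named by that rule, a run on fewer dauer exit arrays could not change the direction, so such runs do not test it. Counts are given as higher and lower than mix-stage and then as higher and lower than in dauers, where the main counts are 69, 1367, 283 and 321. At an adjusted p of 0.01 they were 9, 703, 103 and 84. Leaving out 1 dauer exit array gave 17 to 46 higher and 678 to 1013 lower than mix-stage, with the lowest counts without replicate 2. Leaving out 1 of the 8 arrays gave 146 to 371 higher and 131 to 521 lower than in dauers, where the extremes came without dauer exit replicates 1 and 3 and dauer replicates 3 and 2. Scaling the arrays gave 125 higher than mix-stage and centring them gave 115. Arrays with the stage's own RNA in Cy5 alone gave 11, 610, 0 and 0 (limma; 1316 and 623 than in dauers at an unadjusted p under 0.05), and those in Cy3 gave 19 and 655, with 58 higher than in dauers. Genes with 1 probe gave 43, 881, 171 and 205, with 6878 within a factor of 2 of mix-stage, and genes with several probes gave 33, 513, 127 and 137, with 3517, both from fewer genes. All 44123 features gave 139, 2802, 464 and 573, with 29445. Where no value shows it, the cause was not tested.

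The replicate numbers did not pair the stages (correlations of same-numbered deviations 0.07, -0.05, 0.23 and -0.15), and a replicate block gave 253 higher and 236 lower than in dauers. Without dauer exit replicate 1 the lower calls were 1 in place of 3 respiratory chain genes, 1 in place of 4 synaptic, 3 in place of 5 flp and of 5 insulin-like, 5 in place of 8 nuclear receptor and 6 in place of 11 F-box genes, and the higher calls 2 in place of 4 C-type lectins. Counted once for each of the 53 lists in each alternative run, 673 list medians moved by no more than the spread between arrays and 65 by more. The ribosomal protein median in dauer exit was 0.06 with own RNA in Cy5 and -1.02 in Cy3, while the dauer arrays were ordered the other way. A list near 0 may hold genes below the detection of the arrays.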

Other observations

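Lists not described above also held members that differed. Of 56 transthyretin-like genes, a family of small secreted proteins expanded in nematodes, 19 were lower than mix-stage by the test and 0 were higher (median -0.67), and 12 of these calls held whichever 1 array was left out. The gene ttr-42 had -3.68, -4.73, -3.88 and -3.44 (SE 0.29, adjusted p = 0.000103, limma). The gene ttr-5 had -3.33, -3.54, -3.20 and -2.98 and was lower than in dauers too (difference -2.08, SE 0.35, adjusted p = 0.0132). Of 50 caenacin, fip, fipr and abf peptide genes, which include antimicrobial peptides of the epidermis, 4 were called lower than mix-stage, among them cnc-2 (-1.24, -1.03, -1.20 and -1.16, SE 0.17, adjusted p = 0.00291). Between the stages 3 were higher and 7 lower in dauer exit. Of 18 vacuolar proton pump genes 3 were called lower, including the intestinal subunit gene vha-6 (-1.36, SE 0.33), a call lost without replicate 2, 3 or 4 (means -1.57 to -1.05). Of 342 F-box genes of the fbxa, fbxb and fbxc groups 278 lay within a factor of 2.

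Sequence-named genes that were at least 4-fold lower came in part from the same cosmid or YAC clones, which means that they are close neighbours in the genome. Only clones with at least 3 such genes are given, so that they were picked by this count, and clustering was not tested. Clone D1086 gave 5 of its 14 measured genes, ZK813 4 of 7, F55B11 3 of 6, F55G11 3 of 6 and Y54G2A 3 of 26. Over all 15078 genes 419 were called lower by at least 4-fold. The lowest was D1086.10 with ratios of -5.25, -8.30, -6.78 and -6.65 (SE 0.49, adjusted p = 0.000103). Shared sequence among neighbouring paralogs was not tested.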
